A study of Mus musculus with 27 samples.

Results

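Fos, Fosb, Fosl1, Jun, Junb, Egr1, Ier2, Atf3, Klf6 and Myc are immediate early growth response genes, and their RNA was followed in mouse embryonic fibroblasts (MEFs) with and without the Firre locus. The 10 genes were taken by symbol from a table of 37310 genes. All 10 were among the 15387 genes that passed a filter on low counts and were tested. RNA-seq was available for 12 libraries in 4 groups of 3, namely female wild-type, female Firre KO, male wild-type and male Firre KO MEFs. The MEFs came from E13.5 embryos without viscera, head and limbs, were thawed from frozen stocks of single lines and were grown in DMEM with fetal bovine serum up to passage 4. Wild-type MEFs carried the intact locus, and KO MEFs carried a germ line deletion of the whole Firre long noncoding RNA locus on the X chromosome, made by recombination of loxP sites. The labels name no treatment. The labels do not say whether libraries with different numbers came from different embryos or from cultures of 1 line, so the p-values below measure the spread between libraries, which may be technical. The questions were whether the loss of Firre changed these genes in either sex, and how much they varied between libraries of the same group.

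Immediate early genes are switched on within minutes of a growth factor, serum or stress signal, without the need for new protein. The signal runs through the MAP kinases to factors already bound at the promoters, among them the serum response factor with its ternary complex partners, and CREB and ATF proteins. Many of the mRNAs are short-lived, so that their level follows the most recent signal. Fos, Fosb, Fosl1, Jun, Junb and Atf3 encode basic leucine zipper proteins that form the dimers called AP-1 or related dimers. Egr1 and Klf6 encode zinc finger factors, Ier2 a small nuclear protein, and Myc a helix-loop-helix factor that drives growth and ribosome production. In resting fibroblasts serum induces this set before the cells enter the cell cycle.

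The deposited values were expected counts, and the libraries held between 42986516 and 65454660 of them. They are given here as CPM, the count relative to the library total, scaled by edgeR's TMM factors. All 6 male libraries were deeper than the 6 female ones, and in both male groups the library numbered 3 was the shallowest, at 53684288 expected counts in wild-type and 51521907 in KO MEFs. Firre, listed as 6720401G13Rik, had 90 to 307 counts in the 6 wild-type libraries and 0 in the 6 KO libraries, where a count of 0 allows up to 3. All 10 fibroblast markers were detected, and their summed level was between 16092 and 23570 CPM. The 10 macrophage markers summed to between 41.1 and 129 CPM in female and between 8.75 and 17.6 CPM in male libraries. The 7 epithelial markers summed to between 74.6 and 129 CPM in female and between 40.8 and 53.7 CPM in male libraries. The 7 endothelial markers summed to between 25.0 and 35.5 CPM in female and between 17.1 and 23.3 CPM in male libraries. Over all 12 libraries the 10 skeletal muscle markers summed to between 79.7 and 149.5 CPM and the 7 neural markers matched of 8 listed to between 715 and 1025 CPM, with Ckm at no more than 1 count and Gfap and Cldn5 at no more than 8 counts in any library.

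Sequences upstream of 4 of the genes are shown, since the variation of Fosb and Fos between libraries stood farthest above that of genes of the same level, that of Junb stood above it too and that of Jun did not. The starts are those of the GENCODE annotation whose identifiers the table uses, and the sequences were read from mm9, the build of the files. They run 5′ to 3′ on the strand of the gene. The Fos stretch is chr12:86814512-86814811 (+ strand), 328 to 29 bases before the start, and the Fosb stretch is chr7:19895425-19895724 (- strand), 330 to 31 bases before the start. The Jun stretch is chr4:94718914-94719063 and the Junb stretch is chr8:87502618-87502767, both on the - strand and both the last 150 bases before the start. Capitals mark matches to the CArG box, which the serum response factor binds, on either strand to TGACG, the core of the cAMP response element, to TGACATCA, an AP-1 and ATF site, and to TATAA.
Fos: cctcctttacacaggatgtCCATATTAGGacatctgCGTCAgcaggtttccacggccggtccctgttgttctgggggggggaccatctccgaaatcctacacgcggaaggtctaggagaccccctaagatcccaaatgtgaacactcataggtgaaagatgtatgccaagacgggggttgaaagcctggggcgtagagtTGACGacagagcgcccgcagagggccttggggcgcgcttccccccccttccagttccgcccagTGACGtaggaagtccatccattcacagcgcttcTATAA
Fosb: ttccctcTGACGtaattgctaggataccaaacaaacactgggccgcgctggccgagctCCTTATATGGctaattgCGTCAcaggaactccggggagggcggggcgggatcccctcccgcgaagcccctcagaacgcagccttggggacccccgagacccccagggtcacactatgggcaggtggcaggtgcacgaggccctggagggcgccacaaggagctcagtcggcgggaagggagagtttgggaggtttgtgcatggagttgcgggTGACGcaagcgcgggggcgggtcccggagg
Jun: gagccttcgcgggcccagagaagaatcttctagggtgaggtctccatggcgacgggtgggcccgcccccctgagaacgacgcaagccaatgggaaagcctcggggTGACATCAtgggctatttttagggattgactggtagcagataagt
Junb: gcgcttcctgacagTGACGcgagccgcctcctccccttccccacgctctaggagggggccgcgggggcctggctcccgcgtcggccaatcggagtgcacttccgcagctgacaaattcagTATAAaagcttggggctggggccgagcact
Both strands were searched over 500 bases before the start in the 6 genes that the RefSeq promoter table lists (Fos, Fosb, Jun, Junb, Atf3 and Klf6). Fosl1, Egr1, Ier2 and Myc were not searched. A CArG box was found in 2 of the 6, at -309 to -300 in Fos and -272 to -263 in Fosb, against 2.70% of 22380 promoters of protein-coding genes. The Fosb match also contains TATAA on the other strand, which was not marked separately. TGACG was found in 4 of the 6 (Fos, Fosb, Jun and Junb), against 27.6% of all promoters. TGACATCA was found in 2 of the 6, at -45 to -38 in Jun and -119 to -112 in Klf6, against 3.88%. TATAA was found in 4 of the 6, against 40.5%, and stood at -33 to -29 in Fos and -30 to -26 in Junb. None of these letters occurred in the Atf3 window. These matches describe the letters only.

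Fos (chr12:86814840-86818223, + strand, 4 exon blocks) encodes the founding member of AP-1. Its level was 4.98, 4.53 and 5.80 CPM in the female wild-type libraries numbered 1, 2 and 3, and 4.35, 4.70 and 3.52 CPM in the female KO libraries. It was 21.3, 33.8 and 11.3 CPM in the male wild-type libraries and 28.9, 29.1 and 11.8 CPM in the male KO libraries. Every male library stood above every female library, and in both male genotypes the library numbered 3 was the lowest, at under 12 CPM. The lowest mean count of Fos in a group was 190 (female KO), so that counting error was small beside these differences.

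Fosb (chr7:19888070-19895394, - strand, 4 exon blocks) encodes a close relative of Fos with the same partners. It was measured at 5.28, 6.65 and 6.5 CPM in female wild-type and 7.61, 6.5 and 6.95 CPM in female KO libraries. The male wild-type libraries had 22.0, 29.1 and 6.52 CPM and the male KO libraries 27.5, 26.3 and 5.42 CPM. The male libraries numbered 1 and 2 were far above the female libraries, whereas both numbered 3 fell within the female range. Fosl1 (chr19:5447703-5455945, + strand, 4 exon blocks), which encodes Fra-1, a Fos protein without the strong activation domain, varied over a smaller range. Its level was 36.7, 44.7 and 49.7 CPM in female wild-type, 51.7, 53.9 and 49.4 CPM in female KO, 45.6, 50.6 and 41.5 CPM in male wild-type and 47.7, 46.4 and 43.3 CPM in male KO libraries. Female and male libraries overlapped, and the male libraries numbered 3 were the lowest of their groups by a small step. Fosl1 shares 1162 exonic bases with Ccdc85b on the other strand, its counts were not whole numbers, and the library kit does not mark strand, so its reads cannot be told apart from those of Ccdc85b there.

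Jun (chr4:94715725-94718913, - strand, 1 exon block) encodes the partner that Fos proteins need to bind DNA. Its level was 104, 119 and 122 CPM in female wild-type, 117, 123 and 119.8 CPM in female KO, 137, 149 and 165 CPM in male wild-type and 138, 144 and 156 CPM in male KO libraries. Every male library was above every female library, and here the male libraries numbered 3 were the highest of their groups. Jun shares 232 exonic bases with BC042782 on the other strand, and its counts were not whole. Junb (chr8:87500811-87502617, - strand, 1 exon block), a Jun protein with weaker activation of many targets, had 36.2, 46.9 and 51.5 CPM in female wild-type and 56.3, 57.2 and 57.3 CPM in female KO libraries. It had 80.6, 96.5 and 61.5 CPM in male wild-type and 99.8, 102 and 62.0 CPM in male KO libraries. The male libraries numbered 3 were again the lowest of the male libraries, yet remained above all female ones.

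Atf3 (chr1:192994175-193007219, - strand, 4 exon blocks) encodes a stress-induced factor that mostly represses transcription. Its level was 8.88, 8.02 and 9.78 CPM in female wild-type and 10.9, 8.49 and 8.25 CPM in female KO libraries. In male MEFs it was 12, 14.7 and 5.01 CPM in wild-type and 15.9, 12.3 and 5.12 CPM in KO libraries. The male libraries numbered 1 and 2 were above all female libraries and both numbered 3 were below all of them, so that the sexes overlapped.

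Egr1, which encodes a zinc finger factor induced through serum response factor sites, showed the clearest separation of the sexes. It had 46.0, 45.8 and 46.7 CPM in female wild-type and 44.5, 51.7 and 48.4 CPM in female KO libraries. The male wild-type libraries had 215, 240.5 and 154 CPM and the male KO libraries 231, 253 and 159 CPM. Even the male libraries numbered 3, the lowest of their groups, stood far above the highest female library, at 51.7 CPM. Ier2 (chr8:87185230-87186751, - strand, 1 exon block), which encodes a nuclear protein of the early response, followed the same order over a smaller range. It had 27.4, 29.1 and 29 CPM in female wild-type, 31.3, 33.6 and 34.5 CPM in female KO, 47.6, 51.2 and 42.4 CPM in male wild-type and 51.6, 57.1 and 42.9 CPM in male KO libraries. No female library reached the lowest male library.

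Klf6 (chr13:5860735-5869639, + strand, 4 exon blocks) encodes a Krüppel-like zinc finger factor. It varied little, with 518, 525 and 516 CPM in female wild-type, 518, 473 and 507 CPM in female KO, 470.1, 509 and 463 CPM in male wild-type and 539.7, 505 and 439 CPM in male KO libraries. Female and male libraries overlapped. Myc (chr15:61816946-61821929, + strand, 4 exon blocks) was the steadiest. It had 137, 136 and 136 CPM in female wild-type, 131, 136 and 136 CPM in female KO, 103, 105 and 101 CPM in male wild-type and 98.7, 105 and 96.7 CPM in male KO libraries. It was the one gene of the 10 whose 6 female libraries all stood above the 6 male libraries.

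**Figure D1:**
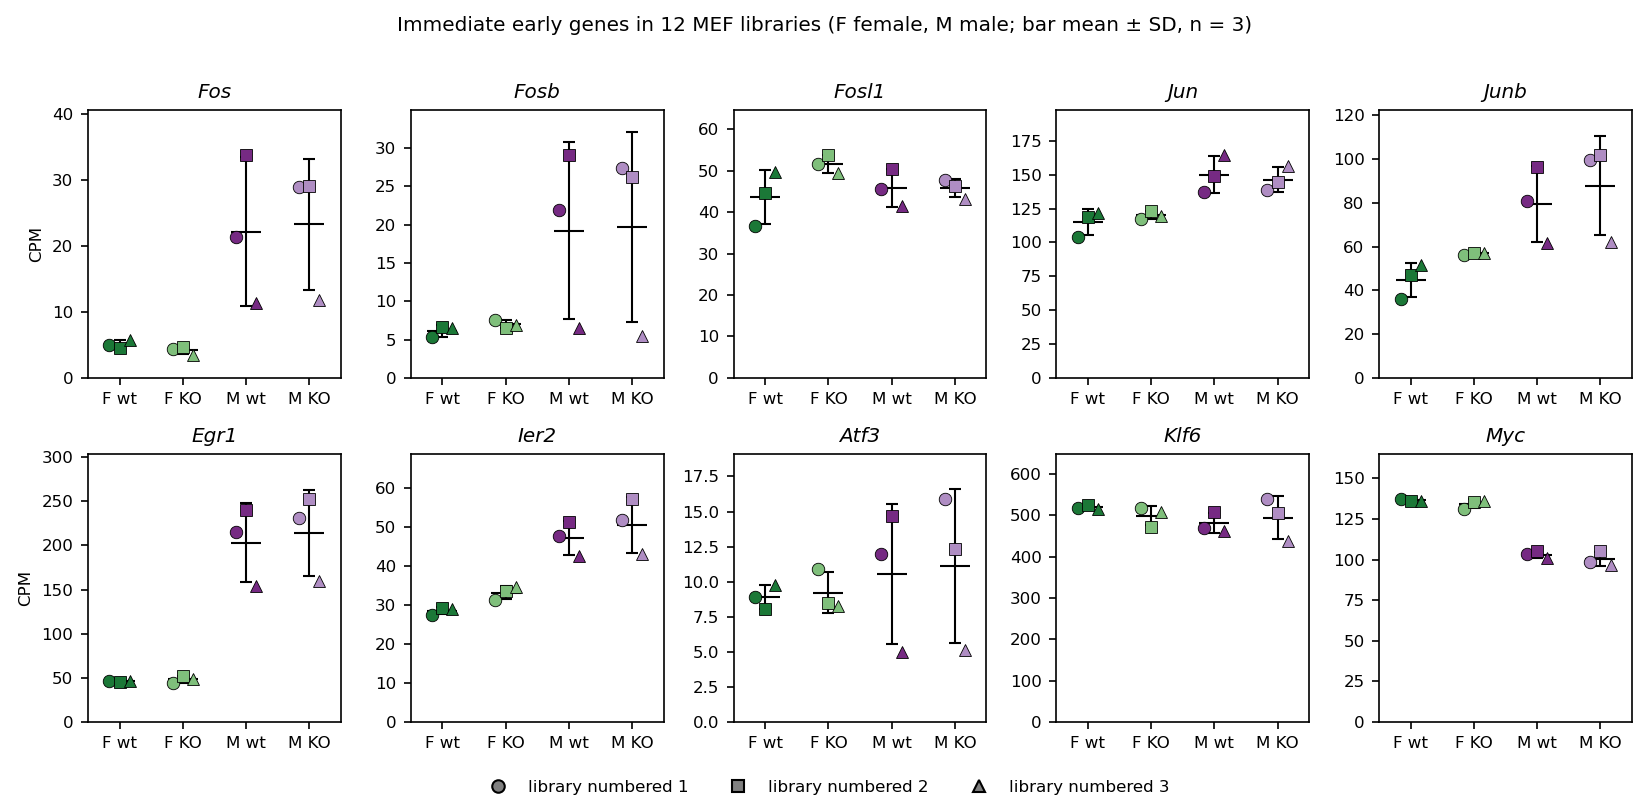
Level of each of the 10 genes (CPM, linear axis from 0) in the 12 libraries, by group; circles, squares and triangles are the libraries numbered 1, 2 and 3, and the bar gives the mean with the SD of 3 libraries. In male MEFs the triangles lie lowest in both genotypes for 9 of the 10 genes, Jun being the exception, and Egr1 lies between 44.5 and 51.7 CPM in female against 154 to 253 CPM in male libraries.

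Levels of different genes were compared per kilobase of merged exons. Over the 12 libraries Klf6 had the highest level, 118 CPM per kb, followed by Myc (43.6), Jun (41.7), Egr1 (41.3), Junb (37.3), Fosl1 (27.4), Ier2 (26.2), Fos (5.82), Atf3 (5.01) and Fosb (3.47), all in CPM per kb. Klf6 stood clear of the others, with group means of 114 to 123 CPM per kb. The group means of Myc, Jun, Egr1 and Junb overlapped, as did those of Fosl1 and Ier2, and those of Fos, Atf3 and Fosb. The highest group mean of the 3 lowest genes was 9.90 CPM per kb (Fos, male KO), below the lowest of all others, 14.9 CPM per kb (Egr1, female wild-type). The order changed with the line. In male wild-type MEFs Egr1 came next after Klf6, at 65.5 ± 14.3 CPM per kb (SD, n = 3), whereas in female wild-type MEFs it lay below Ier2, at 14.9 ± 0.147 against 18.7 ± 0.644 CPM per kb (SD, n = 3).

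The spread between libraries of 1 group was uneven among the genes. It was measured as the SD of log2 CPM within groups, pooled over the 4 groups. The SD was 0.88 for Fosb, 0.61 for Atf3, 0.56 for Fos, 0.29 for Junb and 0.25 for Egr1. It was 0.14 for Fosl1, 0.13 for Ier2, 0.10 for Jun, 0.091 for Klf6 and 0.038 for Myc. The median over the 10 genes was 0.195, against 0.125 over all tested genes. Expression level affects the SD, so the gene-wise biological coefficient of variation (BCV) was set against edgeR's trend for genes of the same level. Fosb was 4.17 times, Fos 2.95 times, Atf3 2.75 times, Junb 2.33 times and Egr1 2.11 times the trend. These 5 lay above the 95th percentile of all tested genes, which 5% of genes do. Fosl1, Ier2 and Jun were between 0.997 and 1.16 times the trend, Klf6 was at 0.914 times and Myc at 0.592 times, the latter at the 19.9th percentile.

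**Figure D2:**
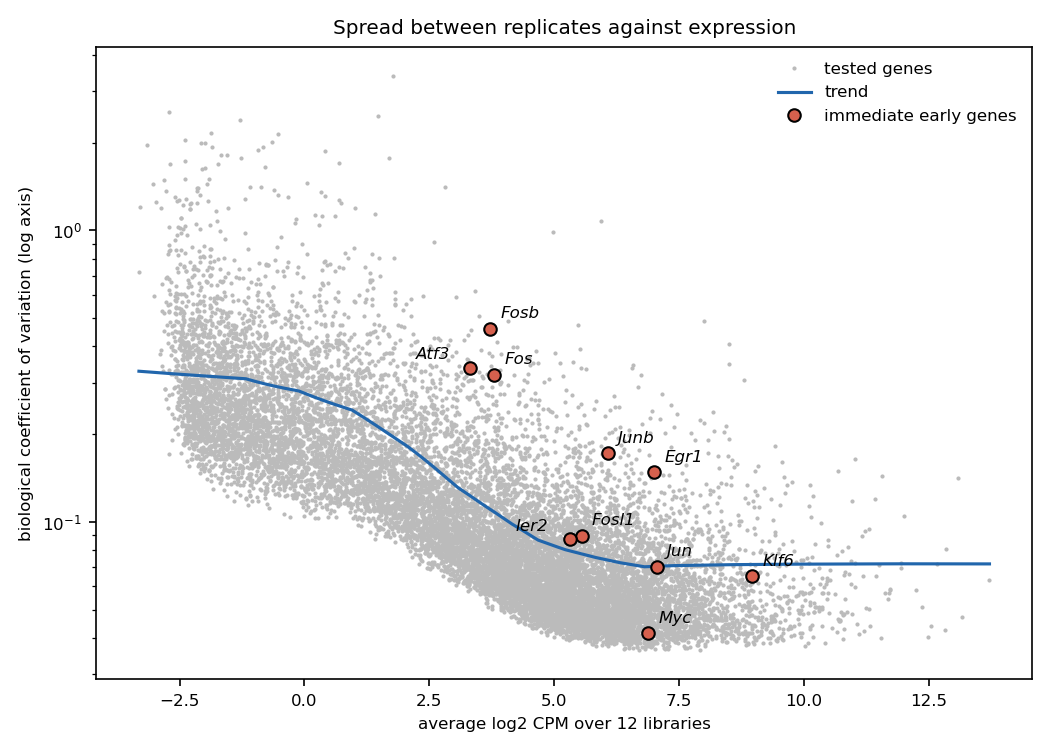
Gene-wise biological coefficient of variation (log axis) against average log2 CPM for the 15387 tested genes (grey), with the trend (blue line) and the 10 immediate early genes (red). Fosb, Fos, Atf3, Junb and Egr1 lie 2.11 to 4.17 times above the trend and Myc lies below it.

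Most of this spread was found in male MEFs for the genes that varied most. The SD within male groups was 1.24 for Fosb, 0.84 for Atf3 and 0.77 for Fos, and within female groups it was 0.15, 0.18 and 0.20. Fosl1 went the other way, with an SD of 0.11 in male and 0.16 in female groups. The median over the 10 genes was 0.261 in male and 0.121 in female groups, against 0.136 and 0.0948 over all tested genes. The 2 male libraries numbered 3 stood apart, which was noticed after the values were seen and is given without a test. In each of them 9 of the 10 genes were below their group mean, Jun being the exception. Averaged over both genotypes, they were lower than the mean of numbers 1 and 2 by more than 0.5 on the log2 scale for 5 of the 10 genes, as were 5.12% of all tested genes. The differences were -2.12 for Fosb, -1.42 for Atf3, -1.27 for Fos, -0.61 for Junb and -0.58 for Egr1. The first 3 were beyond -1, as were 1.08% of all genes. The remaining differences were -0.28 for Ier2, -0.16 for Fosl1 and Klf6, -0.06 for Myc and 0.18 for Jun. The step had the same sign in both genotypes for all 10 genes. In wild-type and KO MEFs it was -1.95 and -2.30 for Fosb, -1.40 and -1.45 for Atf3, -1.25 and -1.30 for Fos, -0.56 and -0.60 for Egr1 and -0.52 and -0.70 for Junb. It was -0.22 and -0.34 for Ier2, -0.21 and -0.12 for Fosl1, -0.08 and -0.25 for Klf6, -0.05 and -0.07 for Myc and 0.21 and 0.15 for Jun. In female MEFs none of the 10 genes was lower by more than 0.5 in the libraries numbered 3, as were 2.2% of all genes, and the differences lay between -0.04 and 0.17.

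**Figure D3:**
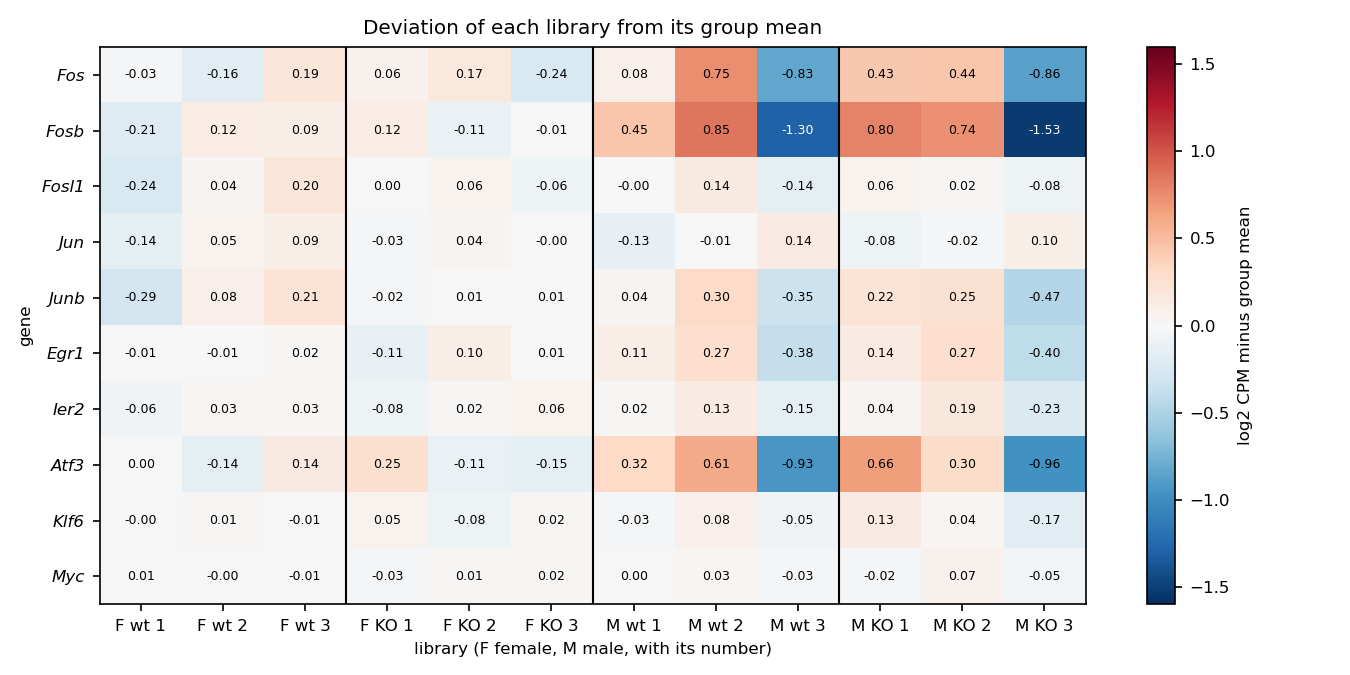
Log2 CPM of each gene in each library minus the mean of its group (colour and printed value), with the libraries ordered by group and number. The male libraries numbered 3 of both genotypes are lowest for Fosb (-1.30 and -1.53), Atf3 (-0.93 and -0.96) and Fos (-0.83 and -0.86), and slightly raised for Jun (0.14 and 0.10).

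Other values moved in the same 2 libraries. Both were the shallowest of their groups. The 7 epithelial markers summed to 53.7 CPM in the male wild-type library numbered 3 against 40.8 and 44.4 CPM in the other two, and to 46.5 against 43.5 and 43.7 CPM in male KO. Krt19 made up most of these sums and was at -0.04 (log2) in the libraries numbered 3. As means over both genotypes, 5 of the 7 markers were higher there by more than 0.5, among them Krt8 (2.24) and Krt14 (2.20). The list median was 0.85 (log2), and 6.44% of all genes were higher by as much. Some of these genes were near the floor. In male wild-type and KO MEFs Krt14 averaged 0.587 and 0.685 CPM and Cdh1 0.0966 and 0.194 CPM, while Krt18 averaged 6.56 and 5.97 CPM. In the female libraries numbered 3, as means over both genotypes, 4 of the 7 were higher by more than 0.5, against 3.41% of all genes. Their median was 1.08 (log2). The epithelial sum was 129 CPM in the female wild-type library numbered 3 against 74.6 and 90.9 CPM in the other two. In female KO it was 81.6 against 76.1 and 80.2 CPM, a smaller step. The 10 fibroblast markers summed to 18850 CPM in the male wild-type library numbered 3 against 23289 and 23570 CPM in the other two, and to 18503 against 22450 and 23554 CPM in male KO. Among them Fn1 (-0.50), Col1a2 (-0.31), Pdgfrb (-0.25), Col1a1 (-0.24) and Vim (-0.13) were lower there, Dcn (1.73), Pdgfra (1.15), Col3a1 (0.30) and Thy1 (0.29) were higher, Lum was at -0.01, and the median of the list was -0.07 (log2). Of 20 other immediate early transcription factors, Egr3 (-0.74), Egr2 (-0.71), Jund (-0.70), Bhlhe40 (-0.51) and Nr4a1 (-0.50) were lower by more than 0.5, Klf10 was higher (0.55), and the median of the list was -0.01. None of 17 feedback regulators, 21 pathway components and 10 heat shock genes was lower by that much. Among 13 AP-1 target genes Mmp13 (-1.28), Mt1 (-1.22) and Mt2 (-1.05) were lower, and Mmp3 (1.41), Mmp9 (1.11) and Mmp10 (0.70) were higher. These genes were named after their values were seen, and the part of depth or of the markers in the pattern was not tested.

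None of the 10 immediate early genes passed the test for a change upon loss of Firre, in female or in male MEFs. KO and wild-type MEFs were compared within each sex by edgeR's quasi-likelihood test over all 12 libraries. Calls required a log2 fold change beyond 1 in either direction together with a Benjamini-Hochberg adjusted p under 0.01. The 10 genes gave 0 calls in female MEFs, where 0.0065% of all tested genes (Firre alone) were called, and 0 calls in male MEFs, where the share was the same, 0.0065%. DESeq2 called none of the 10 either. At an unadjusted p under 0.05 there was 1 of the 10 in female MEFs (Fosl1) and 0 in male MEFs, beside 1162 and 317 of all genes. In female KO MEFs the log2 fold changes lay between -0.29 (Fos) and 0.34 (Junb), with a median of 0.06 against -0.00 over all genes. The smallest adjusted p was 0.629, for Fosl1, whose level was 51.6 ± 2.24 CPM in KO and 43.7 ± 6.57 CPM in wild-type MEFs (SD, n = 3), a log2 fold change of 0.24 ± 0.10 (SE, edgeR). In male KO MEFs the log2 fold changes lay between -0.04 (Myc) and 0.14 (Junb), with a median of 0.06, and every adjusted p was 1.

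The width of the confidence intervals differed from gene to gene. Calls also needed a 2-fold change, so a smaller one could not be called for any gene. The 95% confidence interval of the log2 fold change for Myc was -0.11 to 0.06 in female and -0.12 to 0.04 in male MEFs. For Klf6 it was -0.21 to 0.09 and -0.11 to 0.19, and for Jun -0.10 to 0.23 and -0.20 to 0.13. The interval for Egr1 was -0.33 to 0.45 in female and -0.30 to 0.45 in male MEFs. For Fosb it ran from -1.11 to 1.49 in female and from -1.15 to 1.23 in male MEFs, for Fos from -1.22 to 0.65 and from -0.74 to 0.89, and for Atf3 from -0.84 to 0.94 and from -0.79 to 0.94. A 2-fold change of Fosb in either direction thus lay inside the interval in both sexes, and one of Myc far outside it. All groups shared 1 estimate of the spread. Without both male libraries numbered 3, chosen after their low values were seen, the SE of Fosb in female MEFs went from 0.59 to 0.13. Its log2 fold change was 0.18.

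In female MEFs the 3 KO libraries were above the 3 wild-type libraries for Junb and Ier2, which 10.9% of all tested genes also showed. Junb was at 57.0 ± 0.530 in KO against 44.8 ± 7.84 CPM in wild-type MEFs, and Ier2 at 33.1 ± 1.67 against 28.5 ± 0.980 CPM (SD, n = 3), with adjusted p of 0.724 and 0.661 (edgeR). In male MEFs the genotypes overlapped for all 10 genes, and 5.29% of all genes did not overlap. Averaged over the sexes none of the 10 was called, where 0.0065% of all genes were, and Ier2 had the smallest adjusted p, 0.780 (edgeR, log2 fold change 0.16). The difference between the sexes in the KO effect was called for none of the 10 and for 0% of all genes. Its smallest unadjusted p among the 10 was 0.116 (Fosl1, edgeR), and 491 of all genes were under 0.05.

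**Figure D4:**
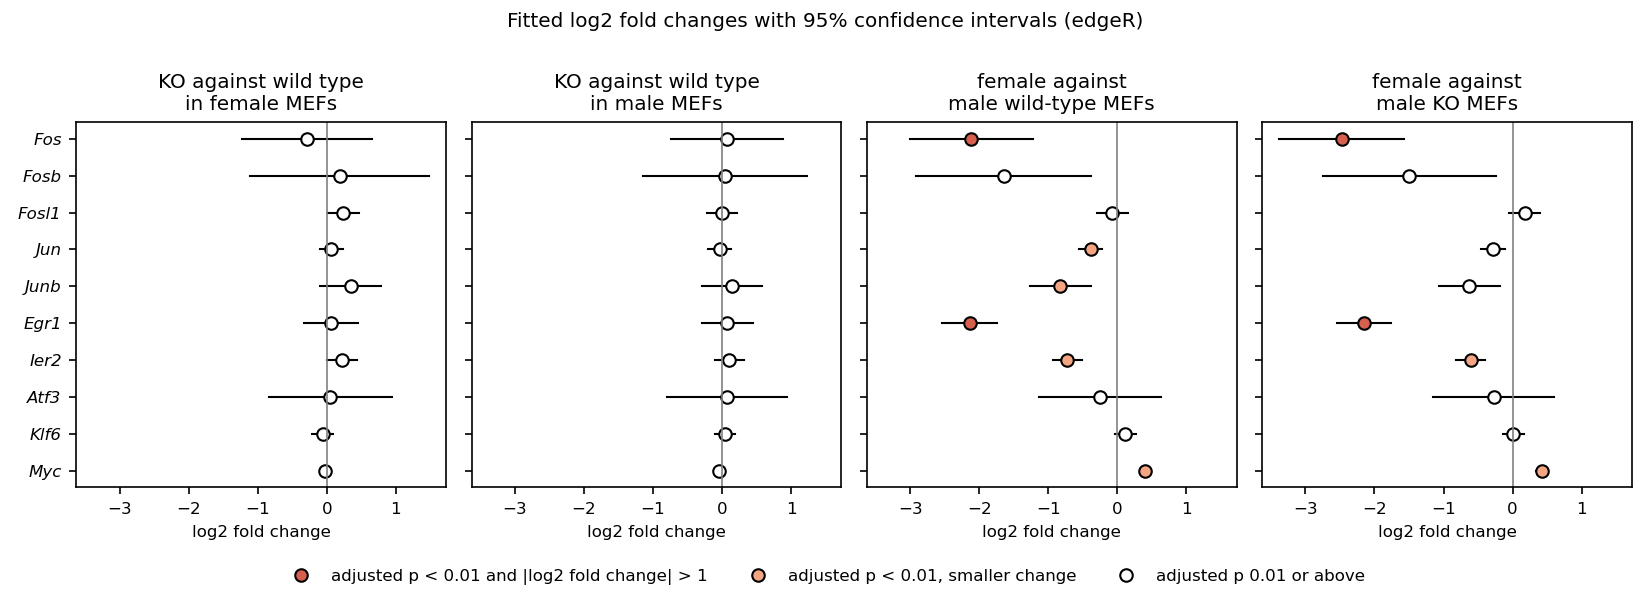
Log2 fold changes of the 10 genes with 95% confidence intervals (edgeR, lines) for KO against wild type in female and male MEFs and for female against male MEFs of each genotype; filled points passed an adjusted p of 0.01. All KO intervals except that of Fosl1 in female MEFs include 0, while Fos (-2.12 and -2.48) and Egr1 (-2.14 and -2.15) lie below -2 in both comparisons of the sexes.

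Female and male MEFs of the same genotype were compared in the same fit. Fos was 4.34 times and Egr1 4.40 times lower in female than in male wild-type MEFs. Fos and Egr1 passed both thresholds in wild-type MEFs, that is 2 of the 10 against 4.54% of all genes, and again 2 of the 10 in KO MEFs against 3.89%. In wild-type MEFs Egr1 averaged 46.1 ± 0.456 CPM in the female libraries against 203 ± 44.5 CPM in the male ones (SD, n = 3), a log2 fold change of -2.14 ± 0.18 (SE) with an adjusted p of 2.0e-05 (edgeR). Fos was at 5.10 ± 0.645 and 22.1 ± 11.3 CPM (SD, n = 3), a log2 fold change of -2.12 ± 0.40 (SE) with an adjusted p of 0.0022 (edgeR). In KO MEFs the log2 fold changes were -2.15 for Egr1 and -2.48 for Fos, with adjusted p of 1.9e-05 and 0.0010 (edgeR). The call for Fos in wild-type MEFs was lost without the female wild-type library numbered 1 or 2, with adjusted p of 0.0103 and 0.0123 (edgeR) and log2 fold changes of -2.10 and -2.04.

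Without the limit on the fold change, Fos, Jun, Junb, Egr1 and Ier2 were lower in female than in male wild-type MEFs at an adjusted p under 0.01, as were 12% of all genes, and Myc was higher, as were 10.4%. The log2 fold changes were -0.38 for Jun, -0.83 for Junb, -0.72 for Ier2 and 0.41 for Myc. In KO MEFs Fos, Egr1 and Ier2 were lower, as were 11.7% of all genes, and Myc was higher, as were 11.3%. Jun had an adjusted p of 0.0128 and Junb of 0.0289 there (edgeR). Myc differed by little but with a small error, at 136 ± 0.719 against 103 ± 2.17 CPM in wild-type and 134 ± 2.76 against 100.1 ± 4.34 CPM in KO MEFs (SD, n = 3), with adjusted p of 3.4e-05 and 2.6e-05 (edgeR). The 6 female libraries did not overlap the 6 male libraries in Fos, Jun, Junb, Egr1 and Ier2, all lower in female, as in 16.9% of all genes, and in Myc, higher in female, as in 15.4%. Fosb, Fosl1, Atf3 and Klf6 overlapped.

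The comparison for Fosb turned on the male libraries numbered 3, which were singled out after their low values for Fosb, Atf3 and Fos were seen. Leaving them out had to raise the male level and lower the spread of these genes. The values and calls without them are therefore a description and no independent test. With all libraries its log2 fold change, female against male, was -1.64 ± 0.58 (SE) in wild-type and -1.50 ± 0.57 (SE) in KO MEFs, with adjusted p of 0.0420 and 0.0587 (edgeR). Without the male wild-type library numbered 3 the first was -2.05 with an adjusted p of 0.00917, without the male KO library numbered 3 the first was -1.65 with an adjusted p of 0.00851 and the second -1.94 with one of 0.00604, and without both they were -2.05 and -1.94 with 9.6e-06 and 1.4e-05 (edgeR). Without both libraries 3 of the 10 genes passed the thresholds in each comparison of the sexes, where 5.06% of all genes did in wild-type and 4.13% in KO MEFs, and 0 in each KO comparison. Atf3 likewise went from -0.25 and -0.28 to -0.58 and -0.62 (log2), with adjusted p of 0.0122 and 0.00931 without both, and the log2 fold change stayed under the limit of 1.

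Each sex was a separate set of MEF lines, all male libraries were deeper and markers of other cell types were higher in female libraries, so sex, line, depth and cell makeup cannot be told apart in these differences. Of the 10 macrophage markers 9 passed both thresholds in each genotype, all higher in female MEFs, against 4.54% of all genes in either direction in wild-type and 3.89% in KO MEFs. They were Lyz2, Tyrobp, Cd68, Fcer1g, Csf1r, C1qa, C1qb, Emr1 and Ptprc, and the median log2 fold change of the list was 2.77 in wild-type and 2.67 in KO MEFs. The epithelial genes Krt18 (1.41), Krt5 (6.07), Krt14 (3.89) and Cdh1 (4.25) were called higher in female wild-type MEFs (log2), that is 4 of 7, and Krt18 (1.28) alone in KO MEFs. The female wild-type library numbered 3 held most of the Krt5, Krt14 and Cdh1 RNA, at 14.3, 17.1 and 4.43 CPM, against 0.982 and 2.30, 3.02 and 5.55, and 0.654 and 0.530 CPM in the other two. Of the 8 skeletal muscle markers tested Myog (4.31) and Tnnt1 (2.83) were called higher in female wild-type MEFs, and Myog (4.47), Tnnt1 (2.67), Tnnt3 (3.19) and Myh3 (4.56) in KO MEFs, with list medians of 2.56 and 2.93 (log2). Among the neural markers Sox10, a gene of neural crest and glia, was called higher in female MEFs in both genotypes (1.85 and 2.26, log2). None of the 5 endothelial markers tested was called. Cdh5 was at 2.41, Kdr at 0.64, Pecam1 at 1.98 and Emcn at -0.21 in wild-type MEFs (log2), with adjusted p of 0.0131, 0.0148, 0.0243 and 0.695 (edgeR). The fibroblast gene Lum was called higher in female wild-type MEFs (3.95), at 7.56 against 0.486 CPM, and the median of the 10 fibroblast markers was -0.33 in wild-type and -0.29 in KO MEFs (log2). The part of these markers in the differences of the early genes was not tested.

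Many of these marker calls did not hold when 1 library was left out. The macrophage genes Tyrobp, Cd68, Lyz2, Fcer1g and Csf1r, that is 5 of the 9 in each genotype, the epithelial gene Krt5 and the fibroblast gene Lum were called whichever library was left out, and the other marker calls named above were lost without at least 1 library, with adjusted p up to 0.0407 (edgeR). Without the female wild-type library numbered 3 the log2 fold changes in wild-type MEFs were 4.24 for Krt5, 2.88 for Krt14, 2.58 for Cdh1, 2.93 for Myog and 1.88 for Tnnt1. They were 6.73 for Krt5 without the male wild-type library numbered 2 and 5.02 for Krt14 without that numbered 3. In KO MEFs, without the female KO library numbered 2, they were 2.45 for Tyrobp, 2.22 for Lyz2, 2.47 for Fcer1g, 2.09 for C1qa, 1.95 for Emr1, 1.10 for Ptprc and 1.93 for C1qb. Without the male KO library numbered 3 Myog was at 6.56, Myh3 at 6.47 and Tnnt1 at 3.27. Without the female KO library numbered 1 Myog was at 3.85 and Myh3 at 3.93, without the male KO library numbered 1 Myog was at 3.88, and without that numbered 2 Myh3 was at 3.97 (log2). In bulk RNA a smaller share of cells expressing a gene and less RNA per cell cannot be told apart either.

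Genes around the same pathway were counted for the comparisons of the sexes and of the genotypes. None of the 20 other immediate early transcription factors, 17 feedback regulators, 14 secreted early genes, 21 pathway components, 13 AP-1 target genes, 14 Myc target genes and 10 heat shock genes was called in any KO comparison. Among the other immediate early transcription factors Egr3, a relative of Egr1, was the one called between the sexes, with 0.704 ± 0.0707 CPM in wild-type MEFs of female and 2.78 ± 0.872 CPM in those of male origin (SD, n = 3). At an adjusted p under 0.01 in wild-type MEFs 3 of the 20 were lower in female MEFs, where 12% of all genes were, and 1 was higher, where 10.4% were, with a median log2 fold change of -0.33 against -0.01 over all genes. In KO MEFs 0 were lower, where 11.7% of all genes were, and 1 was higher, where 11.3% were, with a median of -0.27. Egr3 had an adjusted p of 0.0132 in KO MEFs (edgeR). The counts of the lists below are read against the same shares.

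Of the 17 feedback regulators, which switch the response off, 3 were lower in female wild-type MEFs (12% of all genes) and 0 were higher (10.4%). These were Spry2, a receptor tyrosine kinase inhibitor (-0.58, log2), the antiproliferative factor Btg2 (-0.52) and the EGF receptor inhibitor Errfi1 (-0.34), and the median of the list was 0.07. In KO MEFs 2 were lower (11.7% of all genes) and 1 was higher (11.3%), with a median of -0.03. The ERK phosphatase genes Dusp6 and Dusp4 had the lowest p of the list for KO against wild type averaged over the sexes, at -0.06 and -0.13 (log2), with adjusted p of 0.805 and 0.815 (edgeR). Of the 21 components that carry the signal 8 were lower (12% of all genes) and 1 was higher (10.4%) in female wild-type MEFs. Among them were Map2k1, the kinase upstream of ERK, at 110 ± 3.74 against 139 ± 5.67 CPM (SD, n = 3), the JNK kinase gene Mapk9 (-0.21, log2) and Elk4, a ternary complex factor (-0.20). The median over the components was -0.09. In KO MEFs 5 were lower (11.7% of all genes) and 2 were higher (11.3%), with a median of -0.14. For KO against wild type averaged over the sexes Elk4 (0.07, log2) and Mapk3, which encodes ERK1 (0.10), had the lowest p, with adjusted p of 0.784 and 0.816 (edgeR).

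Of the 14 secreted early genes 2 were lower in female wild-type MEFs and past both thresholds (4.54% of all genes in either direction), the angiogenic factor Vegfa (-1.12, log2) and the cytokine Il6 (-2.07). Both were also called in KO MEFs (-1.04 and -1.78), where Vegfa was at -0.93 without the male KO library numbered 2 and Il6 had an adjusted p of 0.0102 without the female KO library numbered 3 (edgeR), and 3 others were higher in female wild-type MEFs (10.4% of all genes) without passing the fold limit. Of the 13 AP-1 target genes Spp1, which encodes osteopontin, was lower in female MEFs, at 96.4 ± 11.5 against 397 ± 16.6 CPM in wild-type (SD, n = 3), and Mt2, a metallothionein, was higher, at 11.2 ± 0.943 against 2.21 ± 0.987 CPM (SD, n = 3). Mmp13, a collagenase, was called lower in female KO MEFs (-2.07), a call lost when any 1 of 7 of the libraries was left out (adjusted p up to 0.0293, edgeR), and was at -0.79 with an adjusted p of 0.207 in wild-type MEFs (edgeR). At an adjusted p under 0.01, 3 of the 13 were lower and 1 was higher in each genotype, against 12% and 10.4% of all genes in wild-type and 11.7% and 11.3% in KO MEFs. The median of the list was 0.26 in wild-type and 0.19 in KO MEFs (log2), so that the count and the median differed in sign.

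Of the Myc target genes, at an adjusted p under 0.01, 6 of the 14 were higher in female wild-type MEFs (10.4% of all genes) and 7 in female KO MEFs (11.3%), and 0 were lower (12% and 11.7%), with medians of 0.20 and 0.21 (log2) against -0.01 and -0.00 over all genes. They included Odc1, the first enzyme of polyamine synthesis, at 442 ± 20.2 against 302 ± 6.25 CPM, and the nucleolar protein Ncl, at 1554 ± 65.2 against 1262 ± 58.3 CPM in wild-type MEFs (SD, n = 3). The translation factor Eif4a1 was higher by 0.20 in wild-type and 0.23 in KO MEFs (log2). Cad, an enzyme of pyrimidine synthesis, was at 0.20 with an adjusted p of 0.0167 in wild-type MEFs (edgeR) and was higher by 0.33 in KO MEFs. None of the list passed the fold limit. The heat shock genes summed to between 5170 and 5426 CPM over the 12 libraries, with no step between groups. Of the 10, Hsph1 (-0.82) and Hspa1b (-0.66) were lower (12% of all genes) and Hspb1 (0.51) was higher (10.4%) in female wild-type MEFs (log2), while Hspa8 was at -0.10 with an adjusted p of 0.0334 (edgeR). In KO MEFs 2 were lower (11.7% of all genes) and 1 was higher (11.3%).

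How the 10 genes varied together across libraries was followed after removing the group means. The correlation with Fos over 12 libraries was 0.95 for Atf3, 0.94 for Fosb and Egr1, 0.88 for Junb, 0.83 for Ier2, 0.73 for Klf6, 0.63 for Myc, 0.62 for Fosl1 and -0.51 for Jun. The points share their libraries and the 2 male libraries numbered 3 lie far from the rest. The 8 other genes most like the mean of the 10 were Cc2d1b, Cox6a1, 1300018J18Rik, Ift122, Rabac1, Rbm42, Tuba8 and Ndufa13, with correlations between 0.962 and 0.988 over the 12 libraries. None of them was among the lists of early genes. Apart from Tuba8, with a mean of 1.00 CPM and a difference of -1.90, they were lower in the male libraries numbered 3 by 0.186 to 0.389 on the log2 scale, less than Fos, Fosb and Atf3.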

How the data were processed

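RNA-seq was made from total RNA with TruSeq version 2 kits. According to the study's methods and processing notes, the authors mapped reads with Bowtie 2 to mm9 and deposited 1 table of expected counts per gene from RSEM 1.2.29, which splits reads shared by genes, so that 14.7 to 16.8% of the values in a library were not whole. The 2 Hi-C tables were not used. Groups came from the sample titles. Expected counts were rounded, genes filtered with filterByExpr, and 15387 genes tested with edgeR 4.0.16 (quasi-likelihood, TMM, R 4.3.3) in 1 fit with a mean per group and 8 residual degrees of freedom. Benjamini-Hochberg adjustment ran over all tested genes. DESeq2 1.42.0 was an alternative. Log2 CPM used a prior count of 2. The script was tested on simulated data. All 37310 identifiers matched the GENCODE M1 annotation, and lengths are merged exons. Replicate libraries differed beyond counting noise, with chi-square per degree of freedom of at least 7.11 in 12 pairs.

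The 10 genes, the lists and the tests were chosen with earlier results of these data known. All 10 genes are named, and from each other list every gene past both thresholds or, failing that, up to 3 by lowest p in the comparison of the sexes and up to 2 in the KO comparison. A withheld item is not reported here.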

Additional observations from a re-analysis of the deposited data

How the results depend on the processing

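None of the 10 genes passed the thresholds in a KO comparison under any alternative, which were DESeq2, DESeq2 size factors or library size alone in edgeR, no filter, at least 10 counts in every library, fits to the compared libraries alone, a replicate block, no fold limit with an adjusted p under 0.05, and leaving out each library in turn or both male libraries numbered 3 (the latter chosen after seeing the data). Log2 fold changes of single genes were recomputed for the 4 comparisons of group pairs alone. In the comparisons of the sexes 2 of the 10 passed throughout, with these exceptions. Dropping the fold limit, with an adjusted p under 0.05, gave 7 in wild-type and 6 in KO MEFs, where 38.7% of all genes passed in each. Leaving out 1 library gave 1 to 3 in wild-type and 2 to 3 in KO MEFs. Leaving out both male libraries numbered 3 gave 3 in each, where 5.06% and 4.13% of all genes passed, and lowered the median SD of the 10 genes from 0.195 to 0.114.

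Signs turned only where no call was made. For KO against wild type in male MEFs, leaving out 1 library gave -0.24 to 0.51 for Fos, -0.37 to 0.48 for Fosb, -0.070 to 0.073 for Fosl1, -0.099 to 0.034 for Jun, -0.0097 to 0.34 for Junb, -0.087 to 0.25 for Egr1, -0.27 to 0.41 for Atf3 and -0.025 to 0.12 for Klf6 (log2). In female MEFs it gave -0.0031 to 0.11 for Jun and -0.088 to 0.12 for Atf3. Between the sexes it gave -0.17 to 0.038 for Fosl1 and -0.58 to 0.062 for Atf3 in wild-type, and -0.62 to 0.069 for Atf3 and -0.067 to 0.079 for Klf6 in KO MEFs. Fosl1 was at 0.0067 in male KO MEFs with library size alone. Klf6 between the sexes in KO MEFs was at -0.0046 with no filter and -0.067 without both male libraries numbered 3. The cause was not tested.

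Counts over all genes moved more. In the KO comparisons, with 1 gene each, DESeq2 called 4 in female, 2 in male and 3 averaged, and 1 for how the KO effect differed with sex. The filter of 10 counts gave 0, as it removed Firre, and fits to the compared libraries alone gave 0 in female and male MEFs. An adjusted p under 0.05 alone gave 2 in female MEFs and 3 on average, and 5953 and 5949 genes between the sexes. The comparison of the sexes gave 370 genes in KO MEFs with a fit to those libraries alone, and 432 to 763 in wild-type and 329 to 621 in KO MEFs without 1 library.

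The replicate block, with the library number as a term, called 2 of the 10 genes in each comparison of the sexes, where it called 4.15% of all genes in wild-type and 3.3% in KO MEFs, and 0 in each KO comparison, and 0 of all genes, down from 1, in female and in male KO MEFs. The numbers were not taken as pairs. Same-numbered wild-type and KO libraries deviated together with correlations over genes of 0.0966, 0.217 and 0.333 in male MEFs and -0.164, -0.118 and -0.152 in female MEFs, and not every library correlated best with its own number. Over the 10 genes alone they were 0.940, 0.925 and 0.991 in male and 0.0749, -0.311 and -0.620 in female MEFs, and the male libraries numbered 1 and 2 correlated across numbers too (0.868 and 0.943). With the block the SE in male MEFs was 0.30 for Fos, 0.46 for Fosb and 0.33 for Atf3, against 0.37, 0.54 and 0.39 without it. The block was shared by both sexes, while the step of the libraries numbered 3 was not seen in female MEFs. For Fosb that step was -2.12 in male and 0.06 in female MEFs (log2), so the block could take up only part of it. A block within male MEFs was not among the alternatives. With all libraries in the fit, the intervals given for Fos, Fosb and Atf3 were wide, and changes inside them were not excluded. Without both male libraries numbered 3, chosen after their low values were seen, the SE of these 3 genes in female MEFs went from 0.43 to 0.19, from 0.59 to 0.13 and from 0.40 to 0.14.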
